A study of Mus musculus with 12 samples.

Results

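The 10 genes examined here are known targets of p53 whose products take part in cell death, followed in mouse liver: Tnfrsf10b, Fas, Eda2r, Bax, Bbc3, Pmaip1, Apaf1, Pidd1, Perp and Aen. They were chosen by name, with earlier results of these data known, and all 10 were found among the 23420 genes of the deposited count tables, 9 under these symbols and Pidd1 under its older symbol Lrdd. The study measured RNA of whole C57BL/6 liver in 12 libraries, 2 in each of 6 groups. Every group carried Gdown1 flox/flox. Gdown1 is the product of Polr2m, a protein bound to RNA polymerase II, and the design asks what its loss from hepatocytes changes in the presence or absence of p53, the product of Trp53. KO livers (Gdown1 flox/flox with Alb-Cre, 7 weeks old) had lost Gdown1 in cells in which the albumin promoter drives Cre, and were set against FF livers (Gdown1 flox/flox, 7 weeks). DKO livers (Gdown1 flox/flox, Alb-Cre, p53-/-, 8 weeks) were set against p53KO livers (Gdown1 flox/flox, p53-/-, 8 weeks). DKO TAM livers (Gdown1 flox/flox, p53-/-, with the tamoxifen-inducible Alb-CreERT2) were set against p53KO TAM livers (Gdown1 flox/flox, p53-/-, with no Cre in the genotype given), both taken 24 hours after tamoxifen and with no age given in the labels. Cre went with the deletion in all 3 comparisons, so effects of Cre and of Gdown1 loss cannot be told apart. In bulk RNA, fewer cells of a type and less RNA per cell cannot be told apart either.

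The transcription factor p53 is stabilised by DNA damage and other stresses and can lead a cell to arrest or to die. Its death targets act at several levels: receptors of the tumour necrosis factor family at the cell surface, members of the BCL2 family that open the outer mitochondrial membrane, and proteins that assemble the platforms on which caspases are activated. Hepatocytes depend on the mitochondrial step even for death started by the receptor Fas. Several of these genes are also known to respond to other transcription factors, E2F1 among them.

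The libraries held 4939408 to 8776369 counts each. In them 3 counts amount to 0.342 to 0.607 CPM, the read count scaled to a common library size. All 10 members were among the 13693 genes tested. Values below are CPM on the TMM scale, which takes most genes as unchanged, and a gene is called where edgeR's quasi-likelihood F test gave a Benjamini-Hochberg adjusted p under 0.05. Where libraries were scaled by their totals only, the median over all genes shifted by 0.257 (log2) in KO, 0.767 in DKO and 0.347 in DKO TAM livers relative to their controls. The labels do not say whether the libraries of a group come from separate animals, so the tests measure how libraries vary, which may be technical. Polr2m fell in KO livers (log2 fold change -0.67 ± 0.13, SE, adjusted p = 0.0024) and in DKO livers (-0.70 ± 0.13, adjusted p = 2.4e-04), and had a log2 fold change of -0.36 ± 0.13 in DKO TAM livers that did not pass the test (adjusted p = 0.063). Trp53 reads remained in all p53-/- libraries, at 8.39 and 8.13 CPM in DKO, 3.07 and 2.79 in p53KO, 8.96 and 10.01 in DKO TAM and 3.79 and 3.97 CPM in p53KO TAM livers. It held 17.1 and 22.5 CPM in KO libraries, against 13.1 and 7.94 CPM in FF libraries, so the DKO and DKO TAM levels lay within the FF range. Trp53 reads rose in KO (log2 0.93 ± 0.24, SE, adjusted p = 0.013), DKO (1.48 ± 0.29, 5.0e-04) and DKO TAM livers (1.29 ± 0.28, 0.0039). The counts cover all exons of the gene and do not show which part of it these reads come from.

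With p53 present, 6 of the 10 death genes rose in KO livers: Tnfrsf10b, Fas, Eda2r, Bax, Apaf1 and Aen. Without p53, 3 of the 10 were higher in DKO livers, Tnfrsf10b, Pmaip1 and Apaf1, and 1, Tnfrsf10b, was higher in DKO TAM livers 24 hours after the deletion was induced. This DKO TAM call (adjusted p = 0.042) was lost in 13 of 21 alternative ways of processing. None was called lower in any of the 3 comparisons. The background share of genes called higher was 6.92% of the genes tested for KO against FF, 25.7% for DKO against p53KO and 8.61% for DKO TAM against p53KO TAM, and that of genes called lower was 7.88%, 25.7% and 10.1%. In at least 1 comparison without p53, 3 of the 10 were called higher, against 29.8% of all genes. The 3 of 10 in DKO livers and the 1 of 10 in DKO TAM livers thus lie near their backgrounds, and the 6 of 10 in KO livers lie above theirs. The median log2 fold change of the 10 genes was 1.41 for KO against FF (0.02 over all genes tested), 0.39 for DKO against p53KO (0.01) and 0.22 for DKO TAM against p53KO TAM (0.01). On library totals the counts of members called higher were 7, 8 and 2, against 20%, 64.4% and 31.7% of all genes on that scale.

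**Figure D1:**
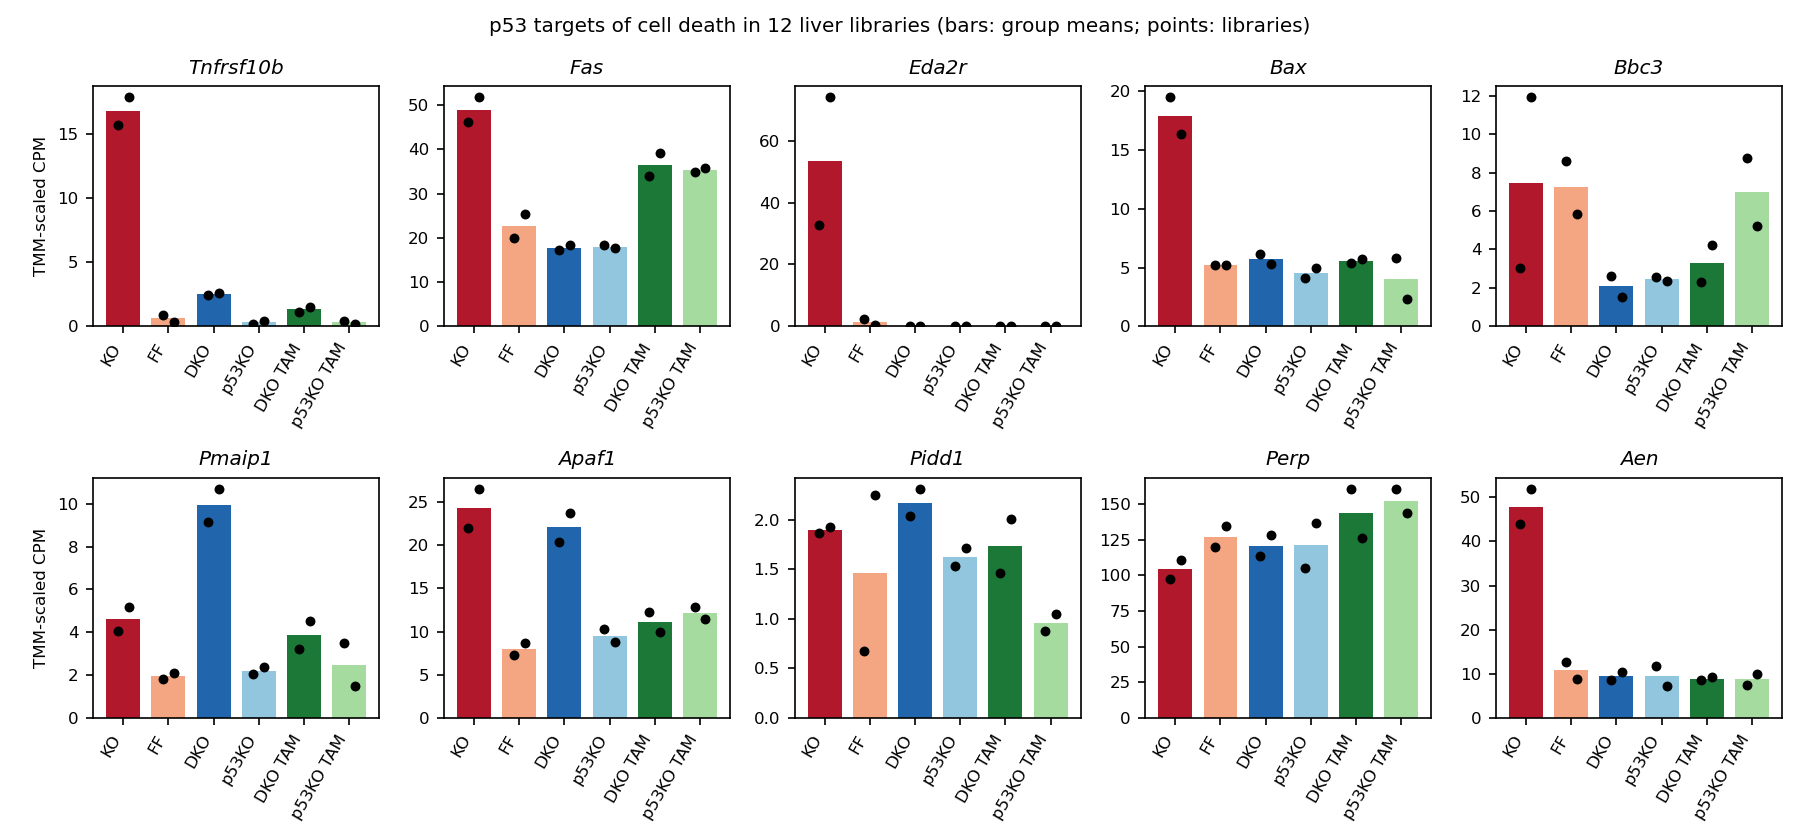
Level of each of the 10 genes in CPM on the TMM scale, with 1 panel a gene and its own linear axis from 0. Bars are group means and points the 2 libraries of each group; the KO points lie above the FF points in the called Tnfrsf10b, Fas, Eda2r, Bax, Apaf1 and Aen and in Pmaip1, which did not pass the test, and the DKO points lie above the p53KO points in the called Tnfrsf10b, Pmaip1 and Apaf1 and in Bax and Pidd1, which did not.

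Stretches around the transcription starts of 4 members that rose in KO livers are shown because these members part ways without p53: Bax, Aen and Fas were called in KO livers alone, Apaf1 in KO and DKO livers. Each runs from 250 bases before the start to 50 after it, in the direction of transcription, from RefSeq on GRCm38.p6. Capitals mark matches to the p53 decamer, the 10-letter unit that p53 response elements are built from, searched by its consensus, which reads the same on both strands. The windows are chr7:45466849-45467148 (minus strand) for Bax, chr7:78895808-78896107 (plus) for Aen, chr19:34290409-34290708 (plus) for Fas and chr10:91082694-91082993 (minus) for Apaf1.
Bax: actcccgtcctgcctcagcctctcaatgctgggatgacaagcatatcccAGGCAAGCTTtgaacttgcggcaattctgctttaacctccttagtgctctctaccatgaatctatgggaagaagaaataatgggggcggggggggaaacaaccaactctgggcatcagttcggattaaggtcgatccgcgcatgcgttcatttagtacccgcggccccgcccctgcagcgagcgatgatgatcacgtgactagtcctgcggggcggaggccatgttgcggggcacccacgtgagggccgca
Aen: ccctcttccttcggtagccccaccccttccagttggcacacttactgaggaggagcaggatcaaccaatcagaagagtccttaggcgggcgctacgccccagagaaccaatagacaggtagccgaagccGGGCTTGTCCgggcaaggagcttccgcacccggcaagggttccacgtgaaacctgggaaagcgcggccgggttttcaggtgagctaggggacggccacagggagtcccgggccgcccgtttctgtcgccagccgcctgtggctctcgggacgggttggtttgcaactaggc
Fas: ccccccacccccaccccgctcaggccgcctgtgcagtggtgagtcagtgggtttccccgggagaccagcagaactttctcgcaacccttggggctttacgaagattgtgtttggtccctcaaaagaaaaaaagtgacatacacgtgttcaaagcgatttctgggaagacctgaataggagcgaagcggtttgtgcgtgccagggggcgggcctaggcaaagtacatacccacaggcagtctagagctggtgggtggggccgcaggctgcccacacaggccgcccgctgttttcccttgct
Apaf1: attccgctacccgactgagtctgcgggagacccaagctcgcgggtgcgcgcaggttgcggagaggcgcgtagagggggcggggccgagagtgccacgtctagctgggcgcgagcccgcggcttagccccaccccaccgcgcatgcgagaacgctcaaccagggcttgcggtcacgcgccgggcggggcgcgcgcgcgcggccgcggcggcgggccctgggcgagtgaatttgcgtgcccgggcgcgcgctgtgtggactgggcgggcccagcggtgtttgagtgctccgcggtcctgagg
The decamer AGGCAAGCTT lies at position -201 relative to the Bax start, and GGGCTTGTCC at position -121 relative to this start of Aen. A further annotated start of Aen, upstream, has the same decamer at position 11. Of the 7 members with a window in the table, these 2 hold a decamer, and Fas, Eda2r, Bbc3, Apaf1 and Pidd1 hold none in theirs. Over all 32851 windows of this length, 8.36% hold 1 or more. Pairs of decamers up to 13 bases apart were found in no member's window and in 0.0731% of all windows. A match says only that these letters are there, and its absence says nothing of sites elsewhere in the gene. Tnfrsf10b, Pmaip1 and Perp were not matched to a window.

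Tnfrsf10b (chromosome 14, 69767472 to 69784411, plus strand, mm10) encodes the mouse receptor for the death ligand TRAIL. It held 15.8 and 17.9 CPM in the 2 KO libraries, against 0.904 and 0.345 CPM in the FF libraries. It held 2.46 and 2.57 CPM in DKO libraries, against 0.171 and 0.429 CPM in p53KO libraries. It held 1.15 and 1.502 CPM in DKO TAM libraries, against 0.437 and 0.209 CPM in p53KO TAM libraries. Each Gdown1-deleted library stood above both of its controls in all 3 comparisons, and the 3 control groups were near the level of 3 counts. The log2 fold change was 4.79 ± 0.41 for KO against FF (SE, adjusted p = 1.1e-06), 3.06 ± 0.58 for DKO against p53KO (adjusted p = 3.1e-04) and 1.89 ± 0.61 for DKO TAM against p53KO TAM (adjusted p = 0.042). It rests on few reads in the controls: 59 counts over the DKO libraries stood against 3 over the p53KO libraries, a scaled ratio of 8.81 with a 95% counting interval of 2.87 to 43.9, and 23 counts in DKO TAM against 4 in p53KO TAM, a ratio of 3.81 (1.3 to 15.2). The call after tamoxifen was lost in 13 of 21 alternatives (adjusted p 0.0098 to 0.19 over all), among them without p53KO TAM replicate 1 (adjusted p = 0.12) or 2 (0.19), DKO TAM replicate 1 (0.062) or 2 (0.16), and any 1 KO or DKO library (0.054). The KO value moved to 5.53 without FF replicate 1 and to 4.19 without FF replicate 2, and the DKO value to 3.74 without p53KO replicate 2.

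Fas (chromosome 19, 34290659 to 34327770, plus strand) encodes the receptor for Fas ligand. It held 46.1 and 51.7 CPM in KO libraries, against 19.9 and 25.4 CPM in FF libraries. It held 17.2 and 18.3 CPM in DKO libraries, against 18.4 and 17.6 CPM in p53KO libraries. It held 34.0 and 39.1 CPM in DKO TAM libraries, against 35.0 and 35.7 CPM in p53KO TAM libraries. The KO libraries stood above all others, and both pairs of p53-/- groups overlapped. Fas rose 2.14-fold in KO livers (log2 1.10 ± 0.16, SE, adjusted p = 1.7e-04). The difference was -0.02 for DKO against p53KO (95% interval -0.36 to 0.32), turning to 0.75 with library totals alone (adjusted p = 5.3e-04), where the median of all genes stood at 0.78. It was 0.05 for DKO TAM against p53KO TAM (-0.26 to 0.36), and 0.39 with library totals alone (adjusted p = 0.042), where Fas and Tnfrsf10b were the 2 members called and the median of all genes stood at 0.36. Fas ligand transcripts (Fasl) numbered at most 8 counts in any library.

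Eda2r (chromosome X, 97333841 to 97377209, minus strand) encodes a receptor for the ectodysplasin form EDA-A2. It was counted 194 and 385 times in KO libraries (32.9 and 74.0 CPM), against 11 and 3 times in FF libraries (2.49 and 0.518 CPM). In the 8 p53-/- libraries it was counted 1 and 0 times in DKO, 0 and 0 in p53KO, 1 and 1 in DKO TAM, and 0 and 0 in p53KO TAM. It was the member with the largest fold change in KO livers, 37.9-fold (log2 5.25 ± 0.63, SE, adjusted p = 0.0020), with KO replicate 2 far above replicate 1. No fold is given without p53, since all 4 groups lie at or under 3 counts. The call for KO livers was lost when the 4 libraries were fitted alone (adjusted p = 0.071), and the value moved to 6.63 without FF replicate 1, to 4.41 without FF replicate 2 and to 4.53 without KO replicate 2. Transcripts of the ligand gene, Eda, averaged 1.95 ± 1.32 CPM in KO and 1.11 ± 0.35 CPM in FF livers (SD, n = 2 each).

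Bax (chromosome 7, 45461695 to 45466898, minus strand) encodes a protein that forms pores in the outer mitochondrial membrane. It held 19.5 and 16.3 CPM in KO libraries, against 5.197 and 5.18 CPM in FF libraries. It held 6.19 and 5.31 CPM in DKO libraries, against 4.10 and 4.93 CPM in p53KO libraries. It held 5.42 and 5.76 CPM in DKO TAM libraries, against 5.83 and 2.30 CPM in p53KO TAM libraries. The 2 KO libraries stood above the other 10, which ranged from 2.30 to 6.19 CPM. Bax rose 3.45-fold in KO livers (log2 1.79 ± 0.29, SE, adjusted p = 5.9e-04). The log2 difference was 0.36 for DKO against p53KO (95% interval -0.30 to 1.02, adjusted p = 0.36) and 0.38 for DKO TAM against p53KO TAM (-0.29 to 1.05, adjusted p = 0.44). Bax was called in DKO livers with library totals alone, at 1.12 (adjusted p = 0.0048), above the median of 0.78 of all genes on that scale.

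Bbc3 and Pmaip1 encode PUMA and NOXA, proteins with a single BH3 domain that act on other members of the BCL2 family. Bbc3 (chromosome 7, 16309583 to 16318334, plus strand) held 3.05 and 11.9 CPM in KO libraries, against 8.59 and 5.87 CPM in FF libraries. It held 2.63 and 1.54 CPM in DKO libraries, against 2.56 and 2.36 CPM in p53KO libraries. It held 2.29 and 4.26 CPM in DKO TAM libraries, against 8.74 and 5.22 CPM in p53KO TAM libraries. The KO libraries lay on either side of both FF libraries, the DKO and p53KO libraries overlapped, and both DKO TAM libraries lay below both p53KO TAM libraries. No comparison passed the test: the log2 difference was 0.04 for KO against FF (95% interval -1.16 to 1.25), -0.24 for DKO against p53KO (-1.78 to 1.3) and -1.14 for DKO TAM against p53KO TAM (-2.38 to 0.09, adjusted p = 0.19). The last passed without KO replicate 1 (adjusted p = 0.036) or 2 (0.038), libraries outside that comparison that enter its estimate of the spread, and with its own 4 libraries fitted alone (0.048). Without KO replicate 2 the KO difference stood at -1.24 (adjusted p = 0.15).

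Pmaip1 held 4.07 and 5.19 CPM in KO libraries, against 1.81 and 2.07 CPM in FF libraries. It held 9.16 and 10.7 CPM in DKO libraries, against 2.05 and 2.36 CPM in p53KO libraries. It held 3.23 and 4.51 CPM in DKO TAM libraries, against 3.50 and 1.46 CPM in p53KO TAM libraries. Its highest level was in DKO livers, which lack p53, and the tamoxifen groups overlapped. Pmaip1 rose 4.50-fold in DKO livers (log2 2.17 ± 0.34, SE, adjusted p = 5.8e-05), a call kept in all 22 alternatives. In KO livers the log2 difference was 1.23 ± 0.41, just short of the threshold (95% interval 0.37 to 2.09, adjusted p = 0.052), and it passed in 8 of 22 alternatives, among them without p53KO TAM replicate 1 or 2 (0.034) and without DKO TAM replicate 1 (0.049) or 2 (0.050). In DKO TAM livers it was 0.55 (-0.21 to 1.32, adjusted p = 0.32), and 0.13 to 1.38 with a library left out.

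Apaf1 (chromosome 10, 90989311 to 91082743, minus strand) encodes the scaffold of the apoptosome, which binds cytochrome c and activates caspase-9. It held 22.02 and 26.5 CPM in KO libraries, against 7.23 and 8.64 CPM in FF libraries. It held 20.4 and 23.8 CPM in DKO libraries, against 10.2 and 8.79 CPM in p53KO libraries. It held 12.3 and 9.89 CPM in DKO TAM libraries, against 12.8 and 11.5 CPM in p53KO TAM libraries. KO and DKO libraries overlapped at the top, and the tamoxifen groups overlapped far below them. Apaf1 rose 3.03-fold in KO livers (log2 1.598 ± 0.21, SE, adjusted p = 7.8e-05) and 2.31-fold in DKO livers (1.21 ± 0.20, adjusted p = 7.9e-05), both kept in all 22 alternatives. After tamoxifen the log2 difference was -0.13 (95% interval -0.55 to 0.29), and 0.21 with library totals alone.

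Pidd1 (chromosome 7, 141438515 to 141443355, minus strand) encodes a death domain protein of the PIDDosome, which activates caspase-2. It held 1.86 and 1.92 CPM in KO libraries, against 0.678 and 2.25 CPM in FF libraries. It held 2.03 and 2.31 CPM in DKO libraries, against 1.54 and 1.72 CPM in p53KO libraries. It held 1.46 and 2.003 CPM in DKO TAM libraries, against 0.874 and 1.04 CPM in p53KO TAM libraries. The DKO and DKO TAM libraries lay above their controls and the KO libraries lay between the FF libraries, but no comparison passed the test. The log2 differences were 0.29 (95% interval -0.80 to 1.38), 0.42 (-0.54 to 1.38) and 0.85 (-0.27 to 1.96) in KO, DKO and DKO TAM livers. It was called in DKO livers with library totals alone (1.18, adjusted p = 0.025).

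Perp (chromosome 10, 18845071 to 18857072, plus strand) encodes a membrane protein of desmosomes that is also a death effector downstream of p53. It held 97.7 and 111 CPM in KO libraries, against 120 and 135 CPM in FF libraries. It held 114 and 128 CPM in DKO libraries, against 105 and 137 CPM in p53KO libraries. It held 161 and 127 CPM in DKO TAM libraries, against 161 and 144 CPM in p53KO TAM libraries. The KO libraries lay below both FF libraries and the other groups overlapped their controls. Its 95% intervals were narrow, -0.62 to 0.04 around -0.29 on the log2 scale in KO livers, -0.32 to 0.32 around 0.00 in DKO livers and -0.40 to 0.23 around -0.08 in DKO TAM livers. None passed the test on the TMM scale. Scaled by library totals, Perp was called in DKO livers at 0.77 (adjusted p = 2.6e-04), where the median of all genes stood at 0.78.

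Aen (chromosome 7, 78895927 to 78908833, plus strand) encodes an exonuclease that takes part in the breakdown of DNA in dying cells. It held 43.9 and 51.9 CPM in KO libraries, against 12.7 and 8.81 CPM in FF libraries. It held 8.56 and 10.4 CPM in DKO libraries, against 11.8 and 7.29 CPM in p53KO libraries. It held 8.65 and 9.14 CPM in DKO TAM libraries, against 7.43 and 10.02 CPM in p53KO TAM libraries. The 2 KO libraries stood far above the other 10, which ranged from 7.29 to 12.7 CPM. Aen rose 4.51-fold in KO livers (log2 2.17 ± 0.23, SE, adjusted p = 8.3e-06). The log2 difference was -0.03 in DKO livers (95% interval -0.54 to 0.49), turning to 0.74 with library totals alone (adjusted p = 0.013, median of all genes 0.78), and 0.05 in DKO TAM livers (-0.49 to 0.58).

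**Figure D2:**
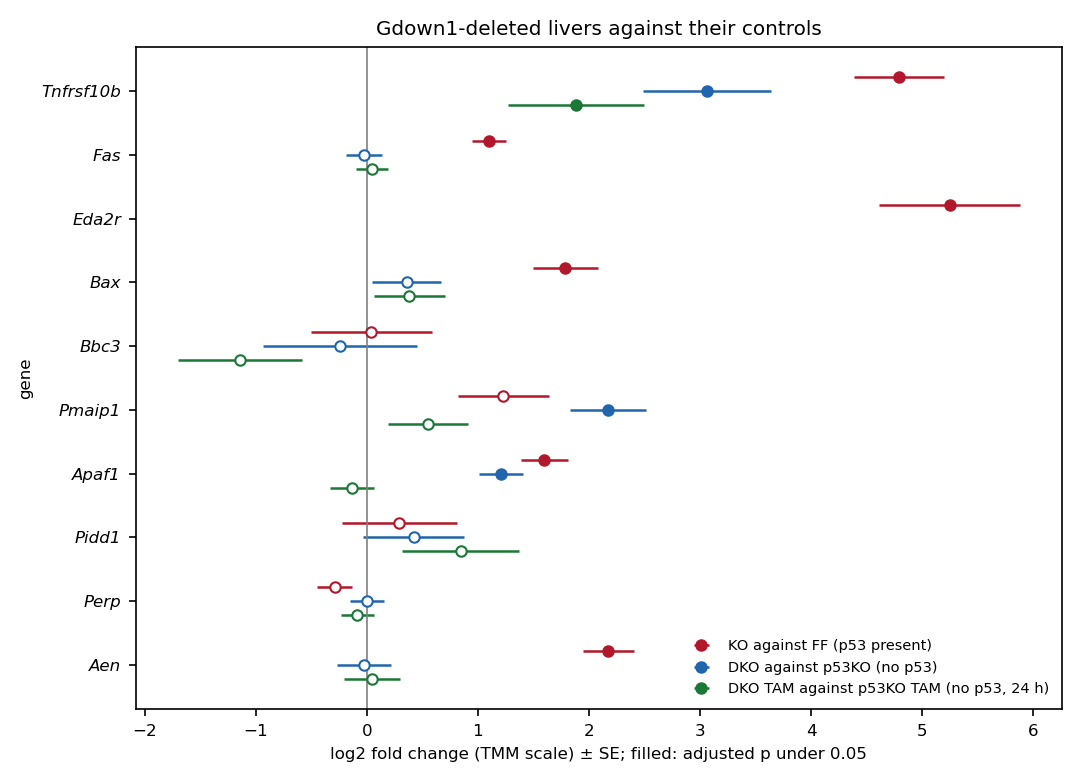
Log2 fold change on the TMM scale with its SE for each gene in KO against FF (red), DKO against p53KO (blue) and DKO TAM against p53KO TAM (green); filled points passed the test, and Eda2r is drawn for KO alone. Fas, Bax and Aen have filled red points and open blue and green points near 0, while Tnfrsf10b is filled in all 3. With library totals alone Fas, Bax, Pidd1, Perp and Aen also passed in DKO livers.

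Called in 1 comparison and not in another does not show a difference, so the difference between effects was tested as well. The effect in DKO livers minus that in KO livers was below 0 for Fas (-1.12 ± 0.22, SE, adjusted p = 0.0022), Bax (-1.43 ± 0.44, adjusted p = 0.026) and Aen (-2.20 ± 0.34, adjusted p = 3.1e-04), 3 of 10 members, against 12.9% of all genes tested. It was called above 0 for no member on the TMM scale (9.75% of all genes) and for 1 with library totals alone (26.2% of all genes). Fas, Bax and Aen were thus both called higher in KO livers and called smaller in DKO livers. So were 210 of the 947 genes called higher in KO livers, or 1.53% of all genes. Both calls use the KO and FF libraries and are not independent. Among the rest, Apaf1 had a difference of -0.39 (95% interval -1.005 to 0.22, adjusted p = 0.36), which turned to 0.12 with library totals alone, Tnfrsf10b one of -1.73 (-3.91 to 0.45, adjusted p = 0.27) and Pmaip1 one of 0.94 (-0.24 to 2.12, adjusted p = 0.24). The call for Bax was lost in 10 of 22 alternatives. Among them it was lost without p53KO replicate 2 (adjusted p = 0.086), DKO replicate 3 (0.082), FF replicate 1 (0.067) or 2 (0.063) and KO replicate 1 (0.072). Those for Fas and Aen were kept in all 22, with ranges of -1.33 to -0.61 and -2.49 to -1.68.

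The effect in DKO TAM livers minus that in KO livers was below 0 for Fas (-1.05 ± 0.21, SE, adjusted p = 0.017), Apaf1 (-1.73 ± 0.29, adjusted p = 0.0039) and Aen (-2.13 ± 0.35, adjusted p = 0.0031), 3 of 10 members, against 1.39% of all genes tested, and above 0 for none (0.657%). Bax had a difference of like size to the one above (-1.40 ± 0.44) that did not pass (adjusted p = 0.13). It stood at -0.51 without p53KO TAM replicate 1 (adjusted p = 0.78) and passed without p53KO TAM replicate 2 (-1.85, adjusted p = 0.029). Tnfrsf10b had a difference of -2.90 (95% interval -4.98 to -0.83, adjusted p = 0.17). The call for Fas was lost without FF replicate 1 (adjusted p = 0.074), KO replicate 2 (0.070) and p53KO TAM replicate 1 (0.054) or 2 (0.061). These differences and the ones with DKO livers share the KO and FF libraries. The DKO TAM and KO comparisons differ in the Cre used, in tamoxifen and in time as well as in p53, and these cannot be told apart. Set directly against each other, the effect in DKO livers was above that in DKO TAM livers for Pmaip1 (1.62 ± 0.52, adjusted p = 0.027) and Apaf1 (1.34 ± 0.28, adjusted p = 0.0022), 2 of 10 members against 13.4% of all genes tested. The call for Pmaip1 was lost in 8 of 22 alternatives, among them without p53KO replicate 1 (adjusted p = 0.094) or 2 (0.051), DKO replicate 3 (0.084), p53KO TAM replicate 1 (0.44) and DKO TAM replicate 1 (0.085). Without p53KO TAM replicate 1 the difference for Pmaip1 was 0.78. Tnfrsf10b had a difference of 1.17 (-0.98 to 3.33, adjusted p = 0.45). The DKO and DKO TAM groups differ in the Cre used and in how it was switched on as well as in time.

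**Figure D3:**
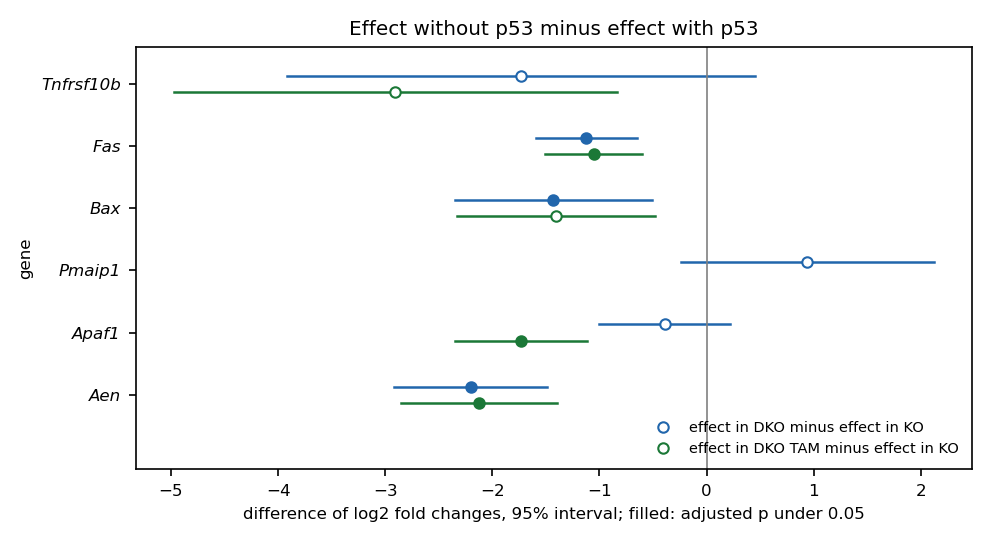
Difference between the log2 fold change without p53 and that in KO livers, with its 95% interval, for DKO (blue) and DKO TAM (green); filled points passed the test. Fas and Aen are filled and below 0 in both, Bax in DKO alone and Apaf1 in DKO TAM alone. With library totals alone the blue point of Apaf1 turns to 0.12. The comparisons differ in more than p53: in age and experiment for DKO, and in Cre, tamoxifen and time for DKO TAM.

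By these calls the 10 genes form 5 kinds, which sort them by threshold and are not tested differences. Fas, Eda2r, Bax and Aen were called higher in KO livers and in neither comparison without p53, as were 284 genes or 2.07% of those tested. For Eda2r the counts without p53 were too few to judge a difference between effects. Tnfrsf10b alone was called higher in all 3 comparisons, as were 271 genes or 1.98%, and likewise in both comparisons without p53 (4.45% of genes). Its call in DKO TAM livers was lost in 13 of 21 alternatives. Its level in DKO livers was under that in KO livers, 2.51 ± 0.08 CPM against 16.8 ± 1.501 CPM (SD, n = 2 each). Apaf1 and Tnfrsf10b were called in both KO and DKO livers, as were 3.90% of genes, and Pmaip1 in DKO livers and not in KO livers. Pmaip1 stood at 1.23 (log2) in KO livers, with an edgeR adjusted p of 0.052. Its DKO minus KO difference did not pass (0.94, adjusted p = 0.24). Bbc3, Pidd1 and Perp were called in no comparison on the TMM scale. Counting groups that do not overlap in place of calls, 7 members were higher and 1 was lower in KO than in FF livers (28.9% and 27.3% of all genes), 5 were higher and none lower in DKO than in p53KO livers (39.7% and 37.3%), and 3 were higher and 1 lower in DKO TAM than in p53KO TAM livers (30.2% and 29.3%).

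Between the controls, p53KO and FF livers differ in p53, in age and in the experiment they belong to. No member was called (0.592% of all genes were called higher and 0.27% lower), and DESeq2 called 1 lower. With edgeR 1 of the 10 had an unadjusted p under 0.05, as did 1608 of the 13693 genes tested. The member with the unadjusted p was Bbc3, at 2.56 and 2.36 CPM in p53KO libraries against 8.59 and 5.87 CPM in FF libraries, a log2 difference of -1.52 (95% interval -2.96 to -0.09, edgeR adjusted p = 0.39). The one that DESeq2 called was Eda2r, with 0 counts over both p53KO libraries against 14 over both FF libraries, a ratio whose counting interval runs up to 0.293 (DESeq2 adjusted p = 0.039). Aen differed by -0.13 (-0.69 to 0.43) and Bax by -0.21 (-0.95 to 0.53). In 4 members (Fas, Eda2r, Bax and Bbc3) both p53KO libraries lay below both FF libraries, and in 1 (Apaf1) above, against 20.9% and 19.6% of all genes.

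Levels of different genes can be compared per length. Per kilobase of exon, Perp was the most abundant member in all 6 groups, at 54.9 ± 4.83 CPM per kilobase in KO and 67.0 ± 5.34 in FF livers (SD, n = 2 each). Fas followed at 27.1 ± 2.21 in KO and 12.6 ± 2.16 in FF livers, then Bax (20.6 ± 2.56 in KO and 5.97 ± 0.01 in FF livers) and Aen (18.6 ± 2.20 in KO and 4.16 ± 1.05 in FF livers). Eda2r reached 9.19 ± 5.002 in KO livers against 0.258 ± 0.239 in FF livers, and Tnfrsf10b 5.29 ± 0.47 against 0.196 ± 0.124. In DKO livers Apaf1 stood at 3.37 ± 0.36 and Pmaip1 at 3.74 ± 0.41 CPM per kilobase, against 1.45 ± 0.16 and 0.830 ± 0.083 in p53KO livers. Pidd1 was under 1 CPM per kilobase in all 6 groups. Summed over the 10 genes, the level on the CPM scale was 286.8 and 368.1 in KO libraries against 179.6 and 193.6 in FF libraries, 182.6 and 203.2 in DKO against 156.2 and 182.5 in p53KO libraries, and 229.2 and 202.9 in DKO TAM against 235.4 and 211.1 in p53KO TAM libraries. The KO libraries lay above all others in this sum, of which Perp makes up the largest share.

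The order of the 6 group means was headed by KO livers in Tnfrsf10b, Fas, Eda2r, Bax, Bbc3, Apaf1 and Aen. It was headed by DKO livers in Pmaip1 and Pidd1, and by p53KO TAM livers in Perp. In Bbc3, Apaf1 and Perp the leading group overlapped the next. In Tnfrsf10b the order ran from KO over DKO, DKO TAM, FF and p53KO TAM to p53KO livers, and FF, p53KO TAM and p53KO could not be told apart by their libraries. In Aen it ran from KO to 5 groups whose neighbours all overlapped. In Apaf1 the KO and DKO groups overlapped at the top and stood apart from the 4 below. Over the 12 libraries, the gene whose log2 CPM was most like that of Aen was Mdm2, which encodes the ubiquitin ligase that degrades p53 (Pearson r = 0.979), followed by the DNA polymerase gene Polk (0.960). Eda2r was most like Ccng1 (0.963) and Polk (0.962), Pmaip1 like Ska3 (0.970) and Btc (0.969), Tnfrsf10b like Aaas (0.971) and Man2b2 (0.965), and Apaf1 like Plxna1 (0.960). Bax (Rad9b, 0.948) and Fas (Mrap, 0.941) came next, and Bbc3 had the lowest leading value (Plxnb1, 0.857). The 12 libraries fall into 6 groups, so these values mostly describe group means, and they were picked as the highest of all genes tested.

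Other genes of the death pathways were followed beside the 10 targets. Their counts are to be read beside the shares of all genes called higher and lower. These were 6.92% and 7.88% in KO, 25.7% and 25.7% in DKO, and 8.61% and 10.1% in DKO TAM livers. With library totals alone, 20%, 64.4% and 31.7% of all genes were called higher. Of 9 other tested pro-apoptotic members of the BCL2 family, 1 rose and 2 fell in KO livers, 3 rose and 2 fell in DKO livers, and 1 rose in DKO TAM livers. Bcl2l11, which encodes BIM, rose in all 3 comparisons, by 0.83 ± 0.18 in KO (SE, adjusted p = 0.0055), 0.57 ± 0.16 in DKO (0.0062) and 0.95 ± 0.17 in DKO TAM livers (0.0012). Bmf, another BH3 protein, fell in KO livers (-1.59 ± 0.32, adjusted p = 0.0032), and Bnip3, a mitochondrial protein of mitophagy, fell in KO (-0.63 ± 0.18, 0.026) and DKO livers (-2.15 ± 0.18, 1.2e-07). Bak1, which forms pores as Bax does, rose in DKO livers (1.18 ± 0.25, adjusted p = 8.1e-04). Among 5 tested anti-apoptotic members, none was called in KO or DKO TAM livers, while Bcl2 (1.05 ± 0.22) and Bcl2a1b (3.34 ± 0.55) rose and Bcl2l2 fell (-0.51 ± 0.15, turning to 0.26 with library totals alone) in DKO livers. On library totals the DKO counts were 4 higher and 1 lower of the 9, and 4 higher and 0 lower of the 5. The KO counts were 2 higher and 1 lower of the 9, and 1 higher and 0 lower of the 5. Bnip3 was not called in KO livers on that scale (-0.38, adjusted p = 0.11). In DKO TAM livers 3 of the 9 were higher and 0 lower.

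Of 12 tested caspases and apoptosome genes none was called in KO or DKO TAM livers on the TMM scale, and 1 and 4 were called higher there with library totals alone. In DKO livers Casp2, the caspase of the PIDDosome, rose (1.86 ± 0.28, SE, adjusted p = 4.4e-05) to 12.6 ± 1.77 CPM, against 3.53 ± 1.37 CPM in p53KO livers (SD, n = 2 each). There 3 others fell, among them the executioner caspase gene Casp6 (-0.57 ± 0.18, adjusted p = 0.013) and the caspase-2 adaptor gene Cradd (-0.91 ± 0.27, 0.0096). Of 14 tested death ligands, receptors and adaptors, the TRAIL gene Tnfsf10, whose product binds the receptor encoded by Tnfrsf10b, fell in all 3 comparisons. Its log2 fold change was -0.68 ± 0.20 in KO (adjusted p = 0.031), -0.79 ± 0.19 in DKO (0.0024) and -0.95 ± 0.20 in DKO TAM livers (0.0034). Tnfrsf22 and Tnfrsf23, mouse TRAIL receptors without a death domain, rose in DKO livers, to 2.13 ± 0.59 and 3.92 ± 0.34 CPM, against 0.278 ± 0.0898 and 0.363 ± 0.21 CPM in p53KO livers (SD, n = 2 each), as did the necroptosis genes Ripk3 (1.38 ± 0.34) and Mlkl (0.76 ± 0.20), among 6 of the 14 that rose and 2 that fell there. Under library totals, 5 of the 12 rose and 0 fell and 10 of the 14 rose and 0 fell in DKO livers, so none of these falls was called on that scale. There Casp6 stood at 0.19, Cradd at -0.15 and Tnfsf10 at -0.02 (log2). On that scale 1 of the 14 rose and 0 fell in KO livers, and 3 rose and 1 fell in DKO TAM livers.

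Of 7 tested inhibitors of apoptosis, Xiap fell in KO (-0.66 ± 0.12, SE, adjusted p = 0.0018) and DKO livers (-0.71 ± 0.12, 1.5e-04), and so did Cflar, which encodes the caspase-8 inhibitor FLIP (-0.49 ± 0.12, 0.014, and -0.78 ± 0.12, 6.0e-05). Birc5, the gene of survivin, which also acts in mitosis, rose by 1.45 ± 0.47 in KO (0.048), 4.94 ± 0.38 in DKO (3.0e-08) and 1.55 ± 0.40 in DKO TAM livers (0.012). In all, 2 of the 7 rose and 2 fell in KO livers, 3 rose and 2 fell in DKO livers, and 2 rose in DKO TAM livers. Scaled by library totals the counts were 3 and 1, 5 and 0, and 3 and 0, and in DKO livers Xiap stood at 0.05 and Cflar at -0.02. In KO livers Cflar was not called on that scale (-0.23, adjusted p = 0.18).

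**Figure D4:**
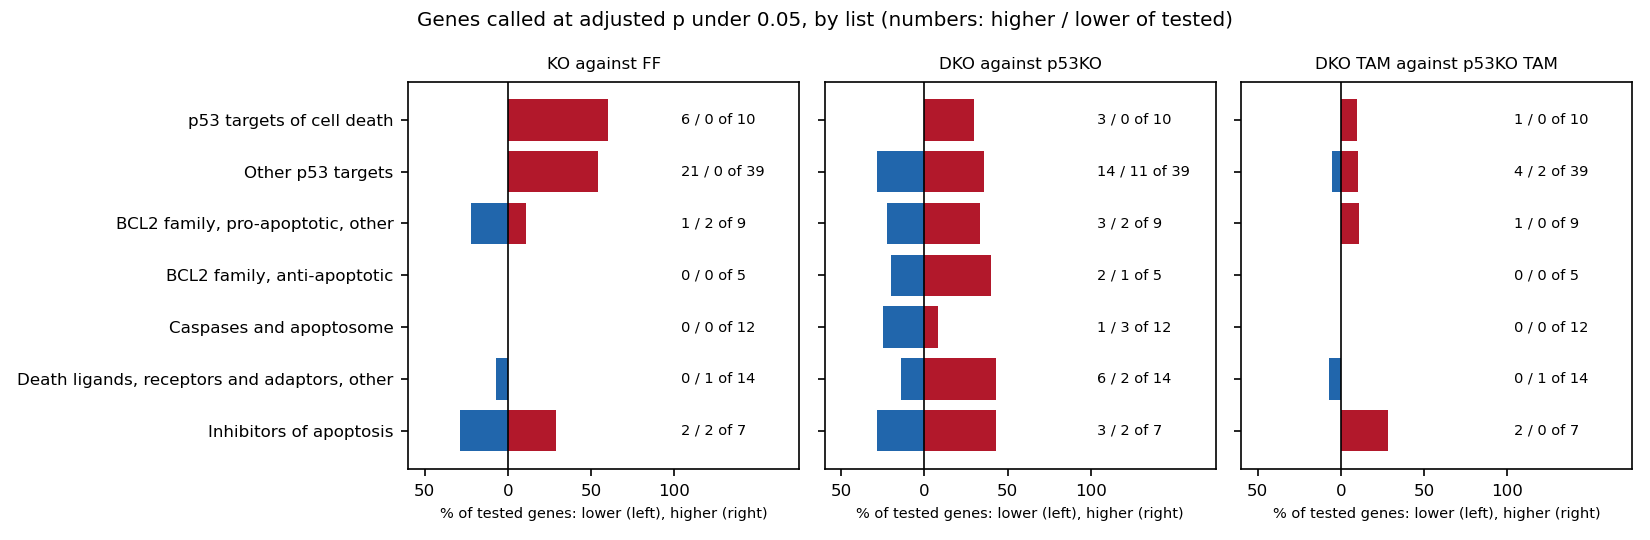
Share of tested genes called higher (red, right of 0) or lower (blue, left of 0) on the TMM scale for the 10 death targets and 6 other lists in KO against FF, DKO against p53KO and DKO TAM against p53KO TAM, with the counts beside the bars. The death targets have 6, 3 and 1 genes called higher and none lower; with library totals alone those counts are 7, 8 and 2, where 20%, 64.4% and 31.7% of all genes are called higher.

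The other targets of p53, 39 of them tested, included 21 that rose in KO livers and none that fell, and their median effect was 0.67 on the log2 scale. Without p53, 14 rose and 11 fell in DKO livers (27 and 4 with library totals alone), and 4 rose and 2 fell in DKO TAM livers (13 and 1). Of all genes tested, 6.92% rose and 7.88% fell in KO, 25.7% and 25.7% in DKO, and 8.61% and 10.1% in DKO TAM livers. With library totals alone 64.4% rose in DKO and 31.7% in DKO TAM livers. Mdm2 held 184 ± 55.5 CPM in KO and 59.2 ± 2.59 CPM in FF livers (1.64 ± 0.18, adjusted p = 1.3e-05), and 54.2 ± 3.43 CPM in DKO and 58.5 ± 9.29 CPM in p53KO livers. Its effect in DKO minus that in KO livers was -1.75 ± 0.25 (SE, adjusted p = 1.9e-04). Psrc1 and Ckap2, both of which also serve in mitosis, rose in KO and in DKO livers, as did other targets of the list. Among these, Phlda3 rose by 4.96 in KO and 6.24 in DKO livers (log2), with 0 counts in the p53KO libraries. Zmat3 rose by 2.42 in KO and 0.728 in DKO livers. Psrc1 held 11.9 ± 2.46 CPM in KO against 0.0864 ± 0.122 CPM in FF livers (adjusted p = 2.5e-05), and 2.004 ± 0.56 CPM in DKO livers (adjusted p = 7.2e-04) with no count in p53KO livers. Ckap2 rose by 2.21 ± 0.39 in KO (SE, adjusted p = 0.0013) and by 5.45 ± 0.39 in DKO livers (1.3e-08). Trp73 and Trp63, the genes of the p53 relatives p73 and p63, had at most 1 and 4 counts in any library. Of 12 tested genes of the p53 family, E2F factors and p53 regulators, 6 rose and 1 fell in DKO livers. With library totals alone 10 rose and 0 fell. E2f1 was among those that rose (1.54 ± 0.34, SE, adjusted p = 0.0013). Whether it bears on the levels of the death genes was not tested.

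Markers of other cells moved with some of these results. In DKO livers the summed level of 12 proliferation markers was 1190 to 1200 CPM, against 79.1 to 86.9 CPM in p53KO livers, that of 8 macrophage markers 1030 to 1090 against 475 to 518 CPM, that of 8 stellate cell and fibroblast markers 1130 to 1230 against 264 to 267 CPM, and that of 8 cholangiocyte markers 269 to 301 against 66.7 to 69.0 CPM. The 7 hepatocyte markers summed to 37900 to 40300 against 129000 to 131000 CPM. In KO livers the proliferation markers summed to 166 to 167 CPM, against 59.2 to 93.5 CPM in FF livers, the macrophage markers to 651 to 706 against 520 to 542 CPM, the stellate markers to 519 to 561 against 360 to 450 CPM, and the hepatocyte markers to 66700 to 77000 against 116000 to 119000 CPM. In DKO TAM livers they summed to 142 to 185 (proliferation), 824 to 825 (macrophage), 341 to 499 (stellate) and 57800 to 60400 CPM (hepatocyte), against 76.8 to 87.8, 642 to 700, 387 to 434 and 125000 to 126000 CPM in p53KO TAM livers. Lymphocyte and NK markers summed to 124 to 133 CPM in DKO against 43.8 to 49.8 CPM in p53KO livers (2 of 6 tested rose), and neutrophil and monocyte markers to 42.6 to 54.5 against 10.9 to 12 CPM (4 of 5 rose). Endothelial markers summed to 470 to 500 CPM in DKO TAM against 742 to 782 CPM in p53KO TAM livers, where 4 of 8 fell, and to 523 to 616 CPM in DKO against 683 to 698 CPM in p53KO livers, where 2 rose and 2 fell. With library totals alone, 6 of these 8 rose and 0 fell in DKO livers, and 0 rose and 2 fell in DKO TAM livers. On that scale 3 of 7 hepatocyte markers fell in KO and 7 in DKO livers, and 3 fell and 1 rose in DKO TAM livers. Macrophage markers called higher there numbered 6 of 8 in KO and 6 of 8 in DKO TAM livers. No marker was at 0 in both libraries of a group. In DKO livers 12 of 12 proliferation, 7 of 8 macrophage, 8 of 8 stellate and 5 of 7 tested cholangiocyte markers rose and 7 of 7 hepatocyte markers fell. In KO livers 6 proliferation, 2 macrophage and 1 stellate markers rose and 5 hepatocyte markers fell. In DKO TAM livers 6 proliferation and 1 macrophage markers rose, and 1 stellate and 4 hepatocyte markers fell. Sums of plain CPM weigh the most abundant genes most. Alb stood at -2.09 (log2) in DKO TAM livers, against a median of -0.67 over the 7 hepatocyte markers, of which 1 was above 0. Whether other cells supply the Pmaip1, Apaf1 or Tnfrsf10b reads of DKO livers was not tested.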

How the data were processed

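RNA from whole mouse liver was measured by RNA sequencing in 12 libraries, made with the SMARTer Stranded Total RNA kit per the labels' protocols. The deposited values are raw counts of reads per gene. The submitters' processing notes name CASAVA 1.82, the aligner HISAT2, the build mm10 (GRCm38) and the counter featureCounts. Headers of 4 count files, those of the 7-week libraries, record featureCounts 1.6.4 and no strand option, and 8 have no program line. Counting without strand merges overlapping genes; no exon of the 10 members overlaps one of another gene in these tables.

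From these counts, edgeR 4.0.16 in R 4.3.3 was used to keep genes by filterByExpr with the 6 groups (minimum count 10), to scale by TMM and to fit the means of all groups together with a robust quasi-likelihood model. It left 6 residual degrees of freedom, and the common biological coefficient of variation was 0.124. Contrasts were tested with quasi-likelihood F tests and Benjamini-Hochberg adjustment over 13693 genes. Adjusted p-values come from this test unless another tool is named, and an SE is the effect over the root of its F value. On simulated counts in which 200 genes had known changes, the procedure was tested first. This does not test the scaling where many more genes change, as in DKO livers. Counting intervals are exact binomial at 95% and cover counting error only.

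Groups come from titles, where DKO replicates are numbered 2 and 3. Same-numbered libraries were compared by the correlation of their deviations from the group means (0.11 for KO with FF and -0.013 for DKO TAM with p53KO TAM, 2 pairs each), and the numbers were not taken as pairs. The members and the other lists were chosen with earlier results of these data known. Beside the members, the text could name up to 4 genes a list with the smallest p in a comparison, Trp53 and Polr2m as checks, cell type markers, and the 2 genes most correlated with each member. Eda, Fasl, Trp63, Trp73 and Psrc1 fall outside this rule and were chosen after their values were seen. As alternatives, scaling was done by RLE, upper quartile or library totals, and filtering was dropped or made stricter (at least 1 CPM in 2 libraries and on average 10 counts). DESeq2 1.42.0 and limma-voom (limma 3.58.1) replaced edgeR, the compared libraries were fitted alone, the replicate number entered as a block, each library was left out, and the threshold was set to 0.01. Promoter windows come from RefSeq. Protein sequences were not used here. The values of 1 gene of these lists are not reported here.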

Additional observations from a re-analysis of the deposited data

Results flagged for a closer look

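In 8 cases the effect on a death gene in Gdown1-deleted livers, which also carry Cre, differed between settings by a test of the difference itself. Each is given on the log2 scale with its SE and its edgeR adjusted p over all genes tested. Against the effect in KO livers, that in DKO livers was -1.12 ± 0.22 for Fas (adjusted p = 0.0022), -1.43 ± 0.44 for Bax (0.026) and -2.20 ± 0.34 for Aen (3.1e-04). In each of them both KO libraries stood above all other libraries. Against the effect in KO livers, that in DKO TAM livers was -1.05 ± 0.21 for Fas (0.017), -1.73 ± 0.29 for Apaf1 (0.0039) and -2.13 ± 0.35 for Aen (0.0031). Against the effect in DKO TAM livers, that in DKO livers was 1.62 ± 0.52 for Pmaip1 (0.027) and 1.34 ± 0.28 for Apaf1 (0.0022). Of all genes tested, 12.9% were called below 0 for DKO minus KO, 1.39% below 0 for DKO TAM minus KO and 13.4% above 0 for DKO minus DKO TAM. The call for Bax was lost in 10 of 22 alternatives, that for Pmaip1 in 8 and that for Fas in DKO TAM minus KO in 5. The KO and FF libraries enter 6 of these 8 differences, and the comparisons set against each other there differ in more than p53. With 2 libraries a group, no group was large enough to test for a single library far from the others.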

How the results depend on the processing

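The 6 calls in KO livers and the 3 in DKO livers kept their direction and their side of the threshold in all 22 alternatives, except Eda2r when the 4 KO and FF libraries were fitted alone (adjusted p = 0.071), and the cause of the changes below was not tested. With library totals alone, members called higher numbered 8 in DKO and 2 in DKO TAM livers (64.4% and 31.7% of all genes on that scale), 1 member was called above 0 for the difference DKO minus KO (26.2%), and all genes called numbered 3294 for KO against FF and 4932 for DKO TAM against p53KO TAM. Members called higher in DKO TAM livers numbered 0 without the filter, with DESeq2, with limma-voom, with the replicate block, with the compared libraries alone (where 1 was lower) and at 0.01. Leaving out 1 library gave 0 to 1 higher and 0 to 1 lower. For the difference DKO minus DKO TAM, members called higher numbered 1 with DESeq2, with the block, at 0.01 and, at the lowest, with a library left out (1 to 2). DESeq2 called 1 member lower in p53KO against FF. All genes called at 0.01 numbered 960 for KO against FF, 1201 for DKO TAM against p53KO TAM, 1545, 89 and 2069 for the differences DKO minus KO, DKO TAM minus KO and DKO minus DKO TAM, and 37 for p53KO against FF. At 0.05, all genes called for p53KO against FF numbered 190 without the filter and 181 with DESeq2. With the replicate block, also at 0.05, all genes called numbered 1876 for DKO minus KO and 2492 for DKO minus DKO TAM. The block also ended the calls for Tnfrsf10b in DKO TAM livers (adjusted p = 0.067), Bax in DKO minus KO (0.13) and Pmaip1 in DKO minus DKO TAM (0.10). With 1 library left out, genes called ranged from 1087 to 2117 for KO against FF, 1188 to 2704 for DKO TAM against p53KO TAM, 1970 to 3184 for DKO minus KO, 118 to 328 for DKO TAM minus KO and 30 to 141 for p53KO against FF. Log2 values near 0 changed sign. In KO livers Bbc3 stood at -0.253 with limma-voom, -0.00282 with the block and -1.24 to 0.738 with a library left out, and Pidd1 at -0.247 to 1.46. In DKO livers Fas stood at 0.000234 with RLE, 0.194 with upper quartile, 0.745 with totals, 0.0112 with the stricter filter, 0.000428 with DESeq2, 0.0153 with the compared libraries alone and -0.0728 to 0.0171 with a library left out. Aen stood there at 0.189, 0.74, 0.00612, 0.000714 and 0.00834 (upper quartile, totals, stricter filter, DESeq2, compared libraries alone) and at -0.32 to 0.371 with a library left out. Bbc3 stood at 0.52 with totals and -0.679 to 0.0843, and Perp at -0.00794 without the filter, -0.105 with the block and -0.19 to 0.19. In DKO TAM livers Apaf1 and Perp stood at 0.214 and 0.264 with totals, and with a library left out Fas ranged from -0.0544 to 0.146, Bax from -0.0622 to 1.28, Apaf1 from -0.304 to 0.0114, Perp from -0.266 to 0.0782 and Aen from -0.172 to 0.257. The DKO minus KO difference of Apaf1 was 0.121 with totals. Counts of 3 or fewer a library limit Tnfrsf10b in the controls and Eda2r in all p53-/- groups. With the compared libraries alone, Tnfrsf10b did not pass the filter in DKO TAM livers and has no value there.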
